A study of Mus musculus with 6 samples.

Results

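Serpins are protease inhibitors that act as bait: a protease cuts an exposed loop of the serpin, the serpin refolds, and the protease stays trapped in an inactive complex. Many serpins are secreted, but the clade B serpins and a few of clade A lack a classical secretion signal and stay in the cytosol and nucleus. In lymphocytes these intracellular serpins are known for protecting the cell from its own granzymes and from cathepsins that leak out of lysosomes. The genes described here are 6 such serpins: Serpina3g, Serpina3f, Serpinb1a, Serpinb6a, Serpinb6b and Serpinb9. They are 6 of the 33157 rows of the count table and 6 of its 66 rows whose symbol starts with Serpin. They were chosen by name with their counts in control and IGF-1 libraries already known, so their own differences between the groups are given as a description, without p-values.

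The cells were group 3 innate lymphoid cells (ILC3s), gut-resident lymphocytes that make IL-22, taken from small intestines of wild-type mice. They were sorted as CD45+ lineage-negative CD90.2hi CD127+ KLRG1- cells. All cultures received recombinant mouse interferon-γ (IFN-γ) at 20 ng/mL for 4 h, so the control group is IFN-γ alone. The other group also received insulin-like growth factor 1 (IGF-1) at 200 ng/mL, and each group held 3 libraries. No culture without IFN-γ was analysed here, so the data carry no measure of what IFN-γ itself did to the serpins. Whether replicate libraries stem from separate mice or cultures is not labelled. The tests therefore see only how far these samples spread, and that spread may be technical. The cells were a sorted population kept in culture, not ILC3s in tissue.

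Libraries held 32573713 to 39206449 counts. All 16 genes of an ILC3 list were above 1 CPM (library-size-normalised counts with TMM factors). Their levels were not all alike in the groups. EdgeR called 1 of the 16 higher, beside 0.230% of all genes, and DESeq2 called 3 higher and 1 lower. In edgeR 5 had an unadjusted p under 0.05, 3 higher and 2 lower. Pairs of values below are mean ± SD (n = 3), control then IGF-1. Neutrophil markers were close to absent: 9 of 10 were too low to test, Elane and Ly6g had no count, and the list summed to 0.644 to 1.91 CPM in control and 0.0580 to 0.454 CPM in IGF-1 libraries. The list of 10 natural killer (NK) cell and ILC1 markers summed to 80.4 to 107 CPM in control and 127 to 152 CPM in IGF-1 libraries, with 7 of the 10 tested. Its NK cell genes Eomes and Klra8 were at 0 in every library, while Klrb1c (38.2 ± 4.89 and 30.7 ± 4.66 CPM), Tbx21 (19.4 ± 6.41 and 23.2 ± 3.18 CPM) and Prf1 (2.02 ± 0.57 and 5.38 ± 1.36 CPM) were detected. Ncr1, a receptor that some ILC3s also carry, rose from 28.2 ± 1.09 to 71.5 ± 6.62 CPM (log2 fold change 1.34, edgeR adjusted p = 0.00903). Of 8 B and plasma cell markers 3 could be tested, and Jchain, a plasma cell gene, had 18629 counts in control replicate 3 against 4 to 7 in each other library (list sums 34.2 to 572 and 51.2 to 62.4 CPM). The epithelial list of 10 summed to 40.3 to 55.3 CPM in control and 20.8 to 28.9 CPM in IGF-1 libraries. Most of that was Epcam (38.6 ± 6.97 and 17.6 ± 3.28 CPM), which was called lower. Next came Lgals4 (6.58 ± 0.39 and 4.69 ± 0.32 CPM) and Muc2, which was higher with IGF-1 without overlap (0.32 ± 0.30 and 1.39 ± 0.43 CPM). The others averaged under 1 CPM in both groups, and Alpi had no count. Of the 6 epithelial genes tested, 1 had a positive and 5 a negative log2 fold change. Mast cell markers summed to 2.18 to 3.82 and 0.855 to 1.49 CPM. Lists for T cells (42.7 to 50.8 and 36.3 to 47.1 CPM), macrophages and dendritic cells (26.7 to 34.2 and 25.8 to 30.9 CPM), ILC2s (21.3 to 29.6 and 27.2 to 30.9 CPM) and fibroblasts with endothelium (90.8 to 117 and 81.4 to 90.9 CPM) had 0 genes called by edgeR, DESeq2 or limma-voom, and 1 T cell gene had an unadjusted p under 0.05. Most of the last sum was Pecam1 (93.4 ± 14.5 and 80.3 ± 3.73 CPM), and the other genes of that list averaged under 3 CPM in both groups. Cd4 led the T cell list (33.3 ± 2.73 and 23.1 ± 4.23 CPM), then Cd3g (9.01 ± 4.08 and 13.3 ± 2.59 CPM). DESeq2 gave no adjusted p for 5 of the 6 tested fibroblast and endothelium genes. Nor did it for 4 of 6 macrophage and dendritic cell, 3 of 6 ILC2 and 1 of 4 T cell genes. Of all 13483 tested genes, 11.8% had an unadjusted p under 0.05 in edgeR, DESeq2 called 3.38% and limma-voom 0.712%. DESeq2 gave no adjusted p for 2619 of these genes, and its shares of all genes count them as not called. No edgeR call held over every left-out library, since 0 genes were higher without control replicate 3 and 0 lower without IGF-1 replicate 1. The part of these markers in the serpin values was not tested.

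Promoter sequences are shown for Serpina3g, Serpina3f and Serpinb9, the members whose values separated the groups without overlap. They come from RefSeq (GRCm38.p6) and give the 250 bases before the annotated start, 5′ to 3′ on the plus strand, at chr12:104235897-104236146, chr12:104214294-104214543 (the first of 2 annotated starts) and chr13:33004291-33004540. The authors' counts used GRCm39, so these positions are not those of the count table. Capitals mark a GAS element (gamma-activated site, TTCNNNGAA), known from promoters that respond to IFN-γ, the core bound by interferon regulatory factors (AANNGAAA), or a kappaB element, the site type bound by NF-kB.
Serpina3g: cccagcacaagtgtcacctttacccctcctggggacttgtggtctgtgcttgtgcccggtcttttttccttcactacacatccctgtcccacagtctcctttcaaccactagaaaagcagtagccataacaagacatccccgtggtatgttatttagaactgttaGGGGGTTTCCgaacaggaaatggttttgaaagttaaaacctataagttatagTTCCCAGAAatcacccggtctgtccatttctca
Serpina3f: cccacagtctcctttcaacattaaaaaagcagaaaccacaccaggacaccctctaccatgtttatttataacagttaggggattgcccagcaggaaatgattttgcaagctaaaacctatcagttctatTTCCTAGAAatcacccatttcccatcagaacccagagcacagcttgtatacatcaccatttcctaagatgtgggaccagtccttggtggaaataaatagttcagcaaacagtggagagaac
Serpinb9: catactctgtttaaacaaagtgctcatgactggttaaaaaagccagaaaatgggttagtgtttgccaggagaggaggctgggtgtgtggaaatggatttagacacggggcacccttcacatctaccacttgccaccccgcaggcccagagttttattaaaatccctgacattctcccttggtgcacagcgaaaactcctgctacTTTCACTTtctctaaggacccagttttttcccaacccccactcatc

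The Serpina3g and Serpina3f promoters matched at 169 of 202 aligned bases (83.7%) over their 300-base windows (250 bases before and 50 after the start). Each held 1 GAS match, TTCCCAGAA in Serpina3g and TTCCTAGAA in Serpina3f, and the matches fell on the same place in the alignment. They begin 33 and 121 bases before the respective annotated starts, and the window of the second Serpina3f start holds its match at 210 bases before that start. Of all 32851 promoter windows in the RefSeq table, 8.30% held a GAS match. A kappaB match, GGGGGTTTCC, began 85 bases before the start of Serpina3g and had no counterpart in Serpina3f (8.46% of all windows hold one). Serpinb9 had an interferon regulatory factor core, TTTCACTT on the reverse strand, beginning 46 bases before its start (23.9% of all windows), and neither of the other 2 motifs. Promoter windows were found for 5 of the 6 genes, 7 in all, and Serpinb1a was without an entry. Serpinb6a, at the first of its 2 starts, held GAS matches beginning 77 bases before and 21 bases after the start, the former sharing 1 base with an interferon regulatory factor core. Its second start had none, and Serpinb6b had only a core match near the far end of its window, 249 bases before the start. The FOXO element TGTTTAC was in none of the 7 windows and in 3.65% of all windows. Every motif was searched on both strands, and a match is a run of letters, not a measured binding site.

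**Figure D1:**
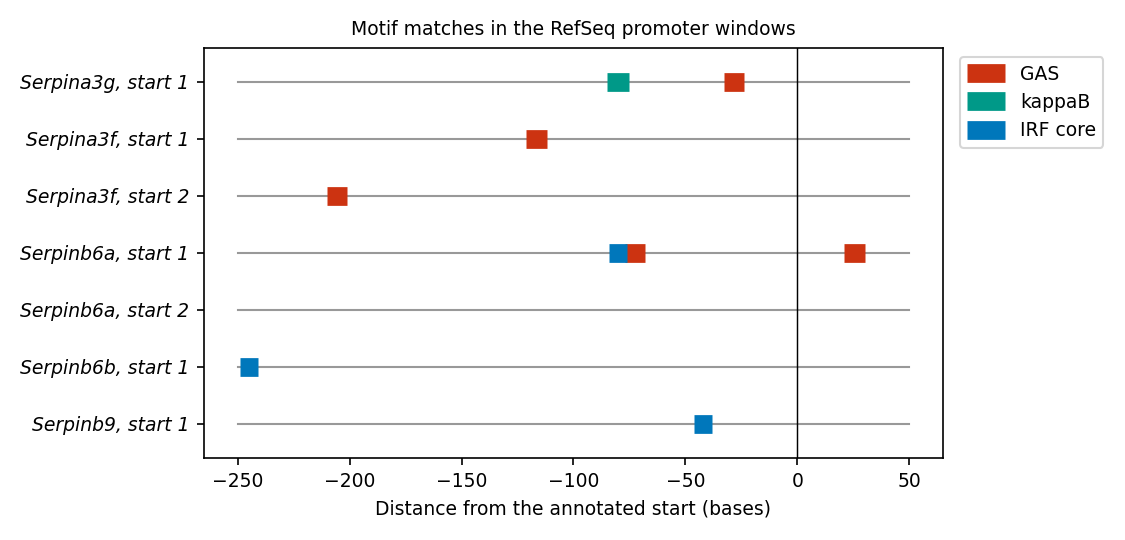
Position of motif matches in the 7 RefSeq promoter windows of 5 intracellular serpins, as distance in bases from the annotated start; red bars are GAS, blue bars interferon regulatory factor cores and green bars kappaB matches. Serpina3g, Serpina3f and the first start of Serpinb6a carry GAS matches, and Serpinb9 and Serpinb6b carry only a core match.

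With IGF-1, Serpina3g and Serpina3f were lower and Serpinb9 higher in each library than in any control library, while the libraries of Serpinb1a, Serpinb6a and Serpinb6b overlapped between the groups. Serpina3g (also called Spi2A) inhibits lysosomal cysteine cathepsins such as cathepsin B and is known for keeping activated lymphocytes alive. It stood at 1580, 1299 and 1417 CPM in control replicates 1 to 3 and at 853, 909 and 928 CPM with IGF-1. The lowest control library was above the highest IGF-1 library. The difference was -0.68 on the log2 scale (SE 0.11), a level 37.4% lower, from 1432 ± 141 to 896 ± 38.7 CPM. In bulk RNA, fewer cells making a transcript and less transcript per cell cannot be told apart.

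Serpina3f, the neighbouring gene and a close copy, had 446, 372 and 398 CPM in control libraries. With IGF-1 it had 252, 290 and 273 CPM, again without overlap. The log2 difference was -0.58 (SE 0.12), from 405 ± 37.6 to 272 ± 19.4 CPM. Both genes were highest in control replicate 1 and lowest in control replicate 2 within their group. The ratio of Serpina3g to Serpina3f counts was 3.50 to 3.56 in control libraries and 3.13 to 3.40 in IGF-1 libraries. The ratio was thus lower in each IGF-1 library, by little beside the difference in either level.

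Serpinb9 (Spi6), the inhibitor of granzyme B, was higher with IGF-1. Its control libraries held 130, 111 and 125 CPM and its IGF-1 libraries 195, 168 and 218 CPM. Every IGF-1 library was above every control library, and the log2 difference was 0.67 (SE 0.13), a level 58.8% higher. Serpinb6b, a mouse inhibitor of granzyme A, had 53.6, 45.5 and 62.2 CPM in control and 61.5, 76.4 and 92.9 CPM in IGF-1 libraries. Here the groups overlapped, since IGF-1 replicate 1 was below control replicate 3, and the log2 difference was 0.52 (SE 0.18).

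Serpinb1a inhibits the neutrophil proteases elastase, cathepsin G and proteinase 3. Its values were 397, 349 and 380 CPM in control and 404, 396 and 352 CPM in IGF-1 libraries, which interleave. The log2 difference of 0.03 was smaller than its SE of 0.12 and changed sign without control replicate 2 or without IGF-1 replicate 1. Serpinb6a, an inhibitor of cathepsin G, had 91.3, 75.6 and 53.6 CPM in control libraries and 61.0, 60.0 and 54.5 CPM with IGF-1. Its control libraries were the most scattered of the 6 genes (coefficient of variation 25.7%), and control replicate 3 was below every IGF-1 library. The log2 difference was -0.33 (SE 0.18), and it ranged from -0.51 without control replicate 3 to -0.14 without control replicate 1.

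**Figure D2:**
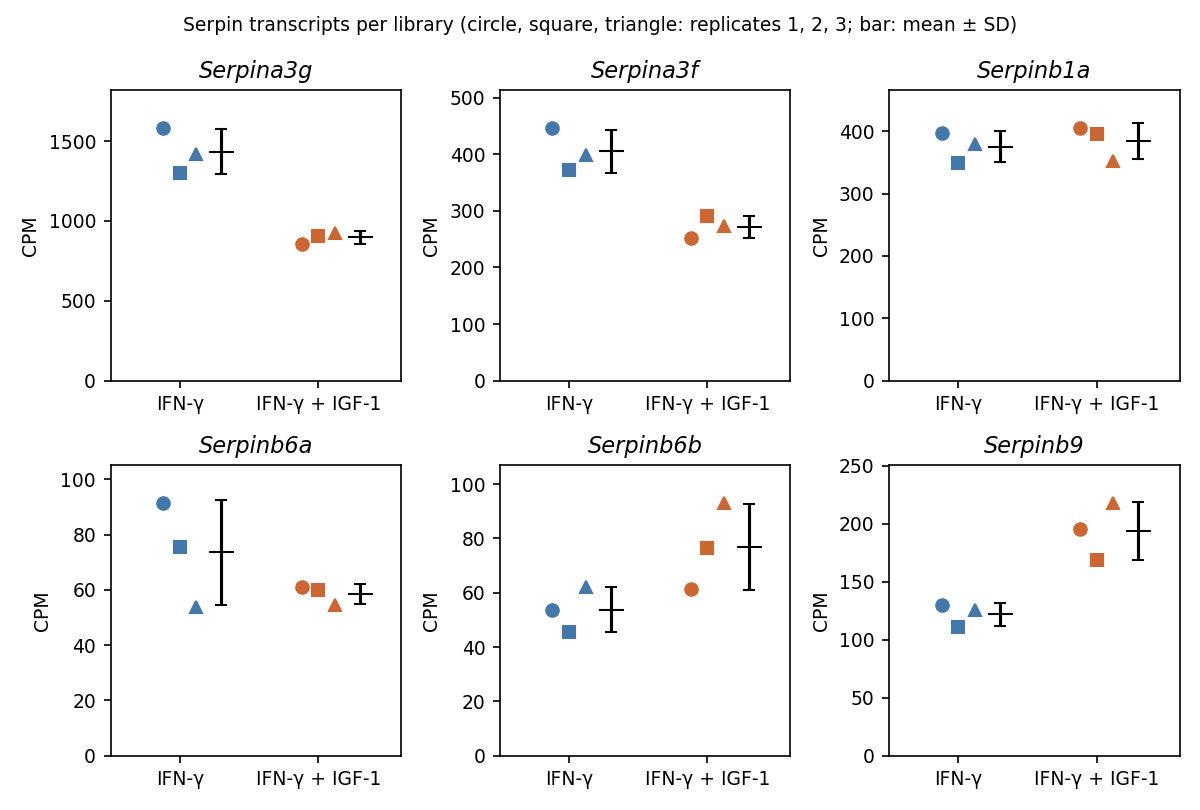
CPM of each intracellular serpin in the 6 libraries (y axes start at 0), with IFN-γ alone in blue and IFN-γ plus IGF-1 in orange; circles, squares and triangles are replicates 1, 2 and 3, and the bar is the mean ± SD. The groups are apart for Serpina3g, Serpina3f and Serpinb9 and overlap for Serpinb1a, Serpinb6a and Serpinb6b.

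In edgeR's quasi-likelihood fit over 13483 genes, 1 of the 6 genes, Serpina3g, was called lower at an adjusted p under 0.05, beside 0.267% of all genes called lower. None was called higher, beside 0.230% of all genes. Groups did not overlap for 3 of the 6, beside 18.0% of all genes. Nothing is read from these counts, because the genes were picked on this contrast. DESeq2, limma-voom and edgeR with either other low-count filter called 3 members, Serpina3f and Serpinb9 being the additional ones, beside 3.38% of all genes in DESeq2, 0.712% in limma-voom, 1.84% with no filter and 2.06% with at least 10 CPM in 3 libraries. Each of the 6 had a DESeq2 adjusted p, while 2619 of all genes had none and count as not called in the 3.38%. The call of Serpina3g was lost when any 1 of the 6 libraries was left out, with its log2 difference then between -0.74 and -0.60. Without control replicate 3, the library with the high Jchain count, the differences were -0.68 for Serpina3g, -0.59 for Serpina3f and 0.69 for Serpinb9.

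Per kilobase of exon (RPKM, with exon lengths from GENCODE M21), Serpina3g was the most abundant of the 6 in every library, at 680 ± 66.9 RPKM in control and 426 ± 18.4 RPKM in IGF-1 libraries. Serpina3f (177 ± 16.4 RPKM) and Serpinb1a (163 ± 10.8 RPKM) followed in control. Serpina3f was above Serpinb1a by little in each control library (195, 162 and 174 against 173, 151 and 165 RPKM). With IGF-1 Serpinb1a was above Serpina3f, at 167 ± 12.3 against 119 ± 8.46 RPKM. Serpinb9 came next at 34.9 ± 2.82 and 55.5 ± 7.06 RPKM. Serpinb6b (23.8 ± 3.70 and 34.0 ± 6.96 RPKM) and Serpinb6a (13.6 ± 3.50 and 10.8 ± 0.65 RPKM) were the lowest. The length used joins all annotated exons of a gene. For Serpinb6a that is 5.409 kb, against 1654 bases in its longest coding transcript, so its low rank depends on the length chosen.

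These 6 genes held 99.0% ± 0.10 of all serpin counts in control and 98.0% ± 0.08 in IGF-1 libraries (SD, n = 3). Serpina3g alone took 57.6% ± 0.46 of serpin counts in control and 46.7% ± 0.86 in IGF-1 libraries. Serpin genes together were 0.251% ± 0.016 of all counts in control and 0.190% ± 0.009 with IGF-1. The summed level of the 2 clade A genes was 1671 to 2025 CPM in control and 1105 to 1201 CPM in IGF-1 libraries, while the 4 clade B genes summed to 581 to 672 CPM and 701 to 722 CPM. For every 100 Serpina3g counts there were 8.22 to 8.84 Serpinb9 counts in control libraries and 18.5 to 23.5 in IGF-1 libraries. These are ratios of counts, not corrected for gene length. The granzyme B inhibitor thus took a larger share of a smaller serpin pool in each IGF-1 library.

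**Figure D3:**
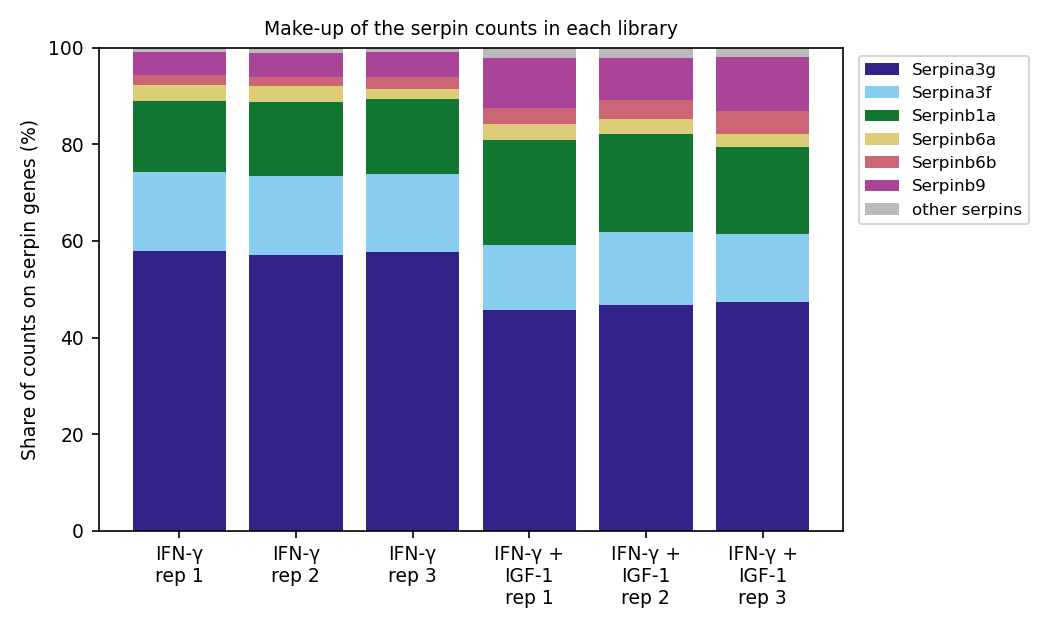
Share of the counts on serpin genes (percent, y axis) taken by each of the 6 intracellular serpins and by all other serpins together, in each of the 6 libraries. Serpina3g averages 57.6% of the counts in control and 46.7% in IGF-1 libraries, and the Serpinb9 band is wider in the latter.

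The members lie in 2 serpin clusters. On chromosome 12, RefSeq lists 28 serpin genes and pseudogenes, 25 of which are in the count table, and Serpina3f and Serpina3g, which are next to each other in that order, were the only ones with enough counts to test. They had 73339 and 252312 counts over the 6 libraries, against 76 for the pseudogene Serpina3h, 63 of them in control replicate 3, and 17 for Serpina3n, a secreted inhibitor. The liver genes of the Serpina1 group had 0 or 1 count each. On chromosome 13, 8 of 17 serpin genes could be tested. Serpinb6b and Serpinb9 are neighbours there, with Serpinb1c and Serpinb1a on one side and Serpinb6a at the far end. The Serpinb9 copies Serpinb9c to Serpinb9h had at most 7 counts each, and Serpinb9b had 173.

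**Figure D4:**
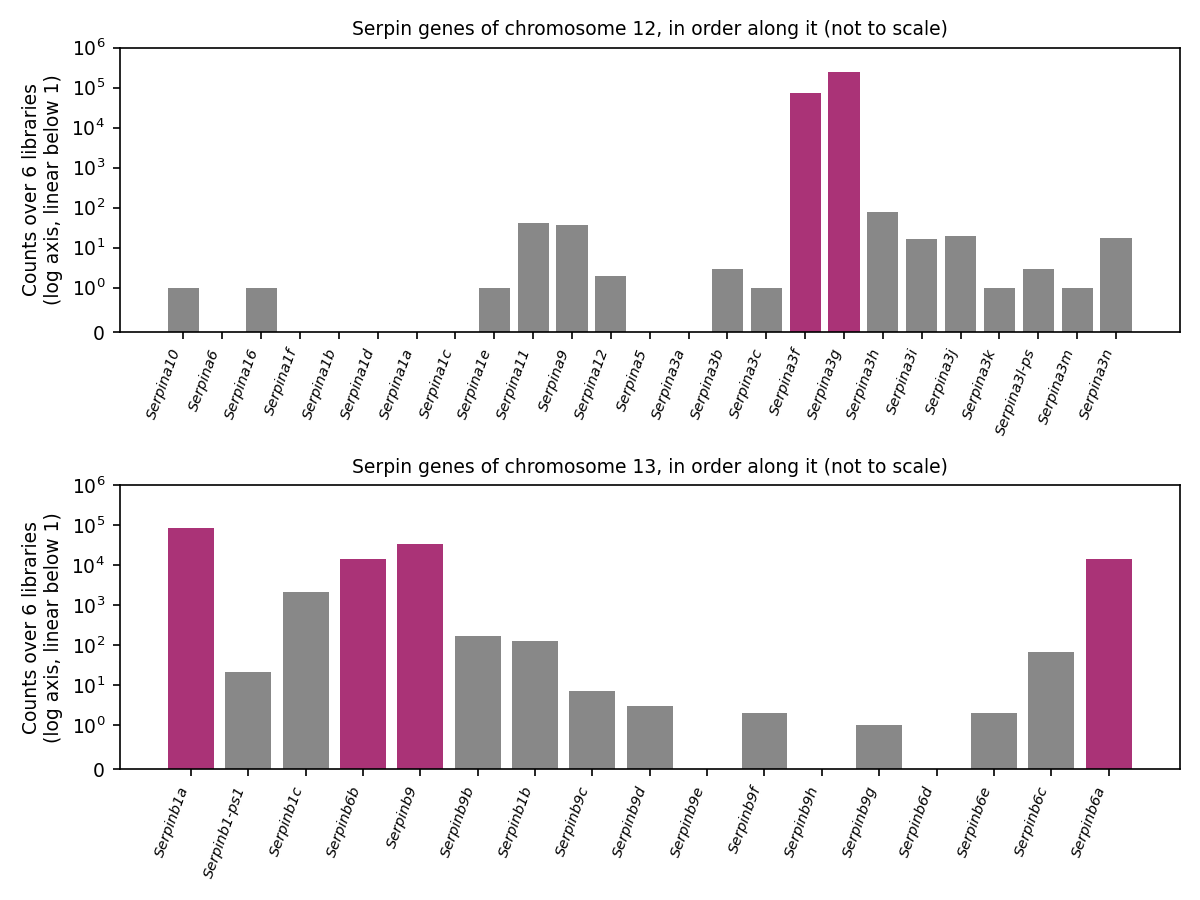
Counts summed over the 6 libraries (y axis, logarithmic above 1) for the serpin genes of chromosomes 12 and 13, in the order in which they lie along the chromosome; purple bars are the 6 intracellular serpins and grey bars other serpins. Serpina3f and Serpina3g are the only tall bars of the chromosome 12 cluster, and Serpinb1a, Serpinb6b, Serpinb9 and Serpinb6a are the tall bars of the chromosome 13 cluster, with Serpinb1c next.

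Reads shared between copies bear on these counts, because how the authors treated reads matching several genes is not given in the sources used here. Of the 50-base stretches in the longest coding transcript (GENCODE M21), 16.0% in Serpina3g and 10.7% in Serpina3f occur in another gene as well. Serpina3g shares 6.67% with Serpina3f and 8.67% with Serpina3h. For Serpinb1a the share was 3.42%, for Serpinb6b 3.13% and for Serpinb9 0.380%, so the Serpinb9 count rests almost wholly on sequence of its own. For Serpinb6a it was 20.7%, mostly with 1110046J04Rik (18.1%), an antisense gene that overlaps it and had 1.34 ± 0.41 and 1.28 ± 0.95 CPM. The annotation also overlaps Serpinb6a with Nqo2 and Ripk1 on the opposite strand. The kit does not mark strand, so reads in those overlaps cannot be assigned to one gene with certainty.

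The 60 other serpin genes were taken by symbol and not by value. Of these, 13 could be tested, 29 had too few counts (at most 63 in any library) and 18 had none. By edgeR's quasi-likelihood test 0 of the 13 passed at an adjusted p under 0.05, and 3 had an unadjusted p under 0.05, all higher with IGF-1, beside 5.58% of all genes higher at that level. DESeq2, which gave no adjusted p for 9 of them, and limma-voom also called 0. Serping1, the C1 inhibitor that restrains complement, had 9, 29 and 2 counts in control and 118, 126 and 113 counts in IGF-1 libraries (log2 fold change 3.06, SE 0.87, adjusted p = 0.183). Its groups were well apart at a low level, 0.388 ± 0.425 against 3.24 ± 0.361 CPM, and it passed when no low-count filter was used (adjusted p = 0.0168). Serpinb1c, a copy of Serpinb1a, had 6.83 ± 2.29 and 12.9 ± 1.73 CPM (0.92, SE 0.31, adjusted p = 0.254). Serpine2, an inhibitor of thrombin and plasminogen activators, had 5.39 ± 1.62 and 9.81 ± 0.66 CPM (0.86, SE 0.30, adjusted p = 0.284). Serpinh1, a collagen chaperone of the endoplasmic reticulum, also had groups without overlap (0.717 ± 0.171 and 1.30 ± 0.409 CPM, adjusted p = 0.716). The other 9, among them Serpinb1b, Serpinb6c, Serpinb8, Serpinb9b, Serpinc1, Serpind1, Serpinf1 and Serpini1, had means under 3 CPM in both groups, and each had at least 1 overlapping pair of libraries. Of the 13, 9 had positive and 4 negative values.

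**Figure D5:**
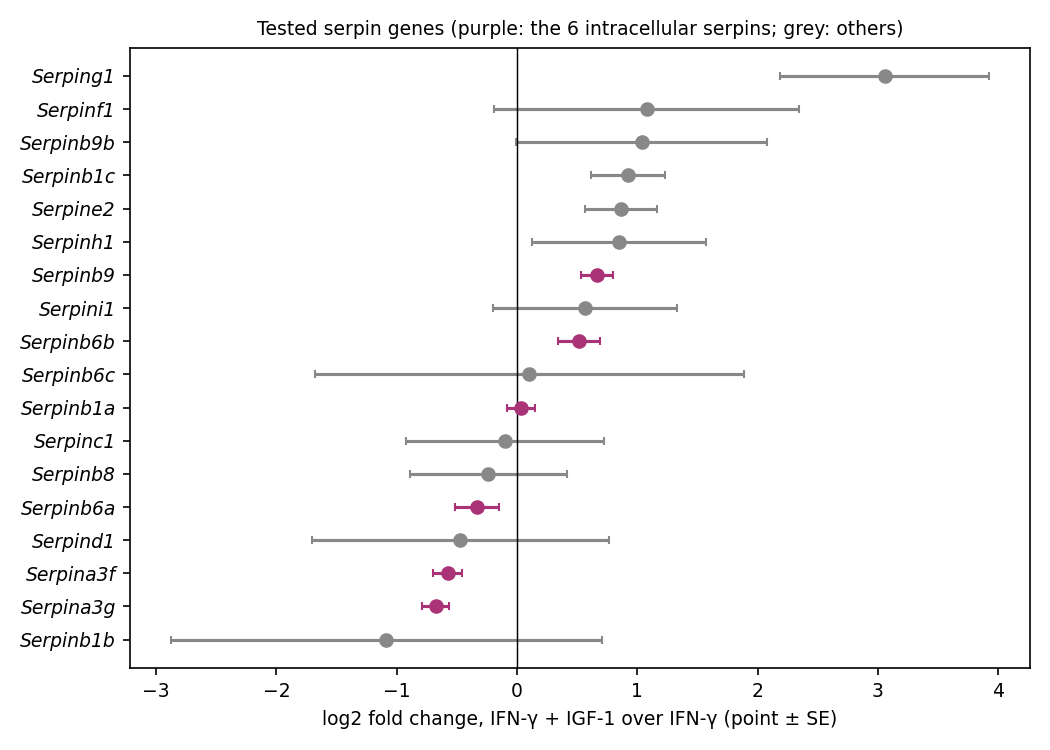
Log2 fold change of IGF-1 libraries against control libraries (x axis, point ± SE, n = 3 per group) for 18 of the 19 serpin genes that could be tested; purple points are the 6 intracellular serpins and grey points the others. Serpina3g and Serpina3f lie below 0 with short bars, Serpinb6b and Serpinb9 above 0, and Serping1 is the highest point with a wide bar.

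Proteases of the classes these serpins are known to inhibit were measured in the same libraries, whether or not each is a known target. All 10 cysteine cathepsins could be tested, and edgeR called 0 of them (median log2 fold change -0.08, against -0.01 for all genes). An unadjusted p under 0.05 was found for 4 of the 10, 1 of them higher and 3 lower, beside 11.8% of all genes. DESeq2, which gave no adjusted p for 1 of the 10, and limma-voom called 0 as well. The 3 with the highest counts are given next, and the 3 lower ones are not among them. Cathepsin B (Ctsb) stood at 334 ± 111 and 409 ± 34.0 CPM (0.29, SE 0.20, adjusted p = 0.627). Ctsw, a cathepsin of cytotoxic lymphocytes, averaged 217 ± 10.4 CPM in control and 270 ± 20.4 CPM with IGF-1 (0.32, SE 0.12, adjusted p = 0.303). Ctsz was at 197 ± 19.9 and 204 ± 22.0 CPM.

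Granule serine proteases were scarce. Of 21 genes 5 could be tested, and 0 were called by edgeR, DESeq2 or limma-voom, with 0 at an unadjusted p under 0.05 (median log2 fold change -0.21). DESeq2 gave no adjusted p for 3 of the 5 and so could not call them. Granzyme B (Gzmb), the target of Serpinb9, had 104, 32 and 242 counts in control and 128, 212 and 190 counts in IGF-1 libraries, or 3.50 ± 2.96 and 4.84 ± 1.44 CPM (adjusted p = 0.836). Granzyme A (Gzma) had 1 to 119 counts per library, with overlapping groups. Gzmc had the highest counts of the list, at 73.0 ± 30.6 and 63.4 ± 10.3 CPM (adjusted p = 0.833). Elastase (Elane) and cathepsin G (Ctsg), targets of Serpinb1a, had no count in any library. Proteinase 3 (Prtn3), the remaining one, had 2 and 13 counts in control replicates 2 and 3 and none elsewhere.

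Among 10 genes of granzyme loading and release edgeR called 1 higher, as did limma-voom, and DESeq2 called 1 higher and 1 lower (median log2 fold change -0.14). An unadjusted p under 0.05 was found for 5 of them, 2 higher and 3 lower, beside 11.8% of all genes, and groups did not overlap for 6, beside 18.0%. Nkg7, a granule membrane protein, rose from 31.2 ± 3.36 to 89.3 ± 24.8 CPM (1.51, SE 0.21, adjusted p = 0.0201). Srgn, the proteoglycan core of the granule, had 873 ± 58.5 CPM in control and 644 ± 18.0 CPM in IGF-1 libraries (-0.44, SE 0.11, adjusted p = 0.126). For protease inhibitors outside the serpin family, 13 of 23 could be tested (median log2 fold change 0.04). Calls numbered 0 in edgeR and limma-voom, and DESeq2 called 1 higher, beside 3.38% of all genes in either direction. DESeq2 gave no adjusted p for 4 of the 13. In edgeR 2 were higher at an unadjusted p under 0.05, beside 5.58% of all genes higher at that level. The highest counts were those of the cathepsin inhibitors Cstb (499 ± 42.5 and 611 ± 114 CPM, adjusted p = 0.479) and Cst3 (463 ± 19.5 and 476 ± 51.0 CPM, adjusted p = 0.938). The calpain inhibitor Cast was at 205 ± 18.9 and 174 ± 3.26 CPM (adjusted p = 0.479). Of 16 genes of caspase and lysosomal death 15 were tested (median log2 fold change 0.02). Calls numbered 0 in edgeR and limma-voom, and DESeq2 called 2 lower, beside 1.90% of all genes. In edgeR 3 had an unadjusted p under 0.05, 1 higher and 2 lower, beside 11.8% of all genes. The genes with the highest counts in that list were Hmgb1 (483 ± 40.4 and 469 ± 46.7 CPM), Casp8 (195 ± 4.45 and 208 ± 2.93 CPM) and Bax (196 ± 37.3 and 200 ± 30.2 CPM). They were not among the genes with an unadjusted p under 0.05.

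In a list of IFN-γ receptor signalling genes, 12 of 15 had negative values. The median log2 fold change of the list was -0.25, against -0.01 for all genes. The list holds genes known to restrain the signal, such as Socs1, beside those that carry it. Its count of negative values therefore gives no direction for the signal. In edgeR 0 of the 15 passed at an adjusted p under 0.05 and limma-voom called 0. An unadjusted p under 0.05 was found for 7, 1 higher and 6 lower, beside 11.8% of all genes, and DESeq2 called 4 lower, beside 1.90% of all genes. The receptor chain Ifngr1 was at 1675 ± 381 and 1450 ± 93.5 CPM (adjusted p = 0.660). Irf1, a transcription factor induced by interferons, averaged 749 ± 17.7 and 561 ± 30.7 CPM (-0.42, SE 0.11, adjusted p = 0.142). The groups did not overlap for 8 of the 15, Irf1 among them, beside 18.0% of all genes.

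Likeness to other genes was measured as the root mean square difference between log2 CPM profiles, each centred on its own mean, over the 6 libraries and among genes of at least 10 CPM with predicted gene models left out. The smaller the value, the closer the profiles. The nearest to Serpina3g were Map3k14 (0.046), Il2ra (0.049) and Stom (0.057). Serpina3g was the second nearest to Serpina3f (0.063), between Il2ra (0.056) and Fkbp1a (0.066). Nearest to Serpinb9 were Zfp267 (0.075), Adgrg3 (0.076) and Phtf2 (0.099), and to Serpinb6b Zfp563 (0.080), Nrros (0.096) and Usp14 (0.102). For Serpinb1a they were Gbf1 (0.030), Slf2 (0.033) and Arl4a (0.035), and for Serpinb6a Olfm1 (0.071), Calhm6 (0.083) and Kdm1b (0.084). Among the 6 serpins themselves the closest pair was Serpina3g with Serpina3f (0.063), then Serpinb6b with Serpinb9 (0.202), and the farthest was Serpina3g with Serpinb9 (0.675). Among these 6 serpins only, the 2 closest pairs were thus of adjacent genes, as a description of 2 pairs. Over all genes compared, each serpin of these pairs had a nearer gene that is not a serpin.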

How the data were processed

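What the authors deposited is a table of unnormalised read counts by gene symbol for 6 libraries made with SMART-Seq HT, a full-length cDNA kit that does not mark strand. The submitters' processing notes name GRCm39 and, among the tools, featureCounts 1.5.3, HISAT2 2.2.1, fastp 0.23.2 and SAMtools 1.15.1. Annotation and treatment of multiply matching reads: not given in the sources used here. Groups came from the labels. The comparison was fitted across all genes with edgeR 4.0.16 in R 4.3.3 (TMM, filterByExpr with minimum count 10 and minimum total 15, glmQLFit, glmQLFTest, Benjamini-Hochberg), which left 13483 genes; the SE is the log2 fold change over the square root of F. The fit was tested on simulated data, in which the changes put in were larger than those of the 6 serpins. Alternatives used DESeq2 1.42.0, limma 3.58.1, other scalings and filters, a replicate block and each library left out. The members and the gene lists were chosen with earlier results of these data known. Named genes were the 6 serpins, every tested serpin, the called or else the 3 most abundant genes of each list, and the 3 nearest profiles per member; marker genes, overlapping genes and untested neighbours were named after their values were seen. Sequences matched by symbol from RefSeq tables were aligned with Biopython 1.88. An exact two-sided permutation test of 3 against 3 libraries cannot go below p = 0.1. Some genes that this rule names are not reported here.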

Additional observations from a re-analysis of the deposited data

How the results depend on the processing

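Over 14 alternatives the signs of Serpina3g, Serpina3f, Serpinb6a, Serpinb6b and Serpinb9 did not change; which of them were called did. The other scalings (RLE, upper quartile, library size) left the number of called members at 1. With DESeq2, 200 genes were called higher and 256 lower, and 3 members were called, Serpina3f (-0.58) and Serpinb9 (0.67) with Serpina3g. With limma-voom 60 genes were lower and the same 3 members passed (Serpina3f -0.58, Serpinb9 0.66). Without a low-count filter the calls were 171 higher and 258 lower, with 3 members (Serpina3f -0.57, Serpinb9 0.67), and with at least 10 CPM in 3 libraries 63 and 115, with 3 members (Serpina3f -0.59, Serpinb9 0.66). A replicate block gave 3 higher, 5 lower and 0 members, with Serpina3g at -0.67. Same-numbered libraries correlated at -0.23, -0.11 and 0.20 in their deviations from the group mean. With only 3 such pairs, these values cannot tell whether same-numbered libraries share a mouse or a day. Leaving out 1 library at a time gave 0 to 24 genes higher, 0 to 31 lower and 0 members in each case, with Serpina3g from -0.74 to -0.60 and Serpinb1a from -0.019 to 0.093. Low serpins changed sign: Serpinc1 was 0.24 with limma-voom, 0.22 with the block and -0.46 to 0.84 over the left-out libraries; Serpind1 was 1.24 with limma-voom and 0.26 with the block; Serpinb6c ran from -0.55 to 6.66 and Serpinb8 from -0.77 to 0.17. The number of member genes with each motif was the same in the 250 bases before the start, where the Serpinb6a GAS match after the start is left out. The cause of these changes was not tested. At the low counts of most other serpins, no direction can be read.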
